A study of Mus musculus with 8 samples.

Results

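Lymphocytes are sparse in healthy kidney cortex, and their genes lie at the lower end of what a tissue library records. The genes described here were chosen by name as markers of B cells, plasma cells and T cells, with earlier results of these data known. Shares of members set against all genes below therefore describe this set only. They comprised the B cell genes Cd79a, Cd79b and Ms4a1, the plasma cell and B cell genes Igj and Pou2af1, the T cell genes Cd3e, Cd3d, Cd3g and Lck, and the lymphotoxin gene Ltb. These were 10 of the 22609 genes counted, and 8 of the 10 passed the filter on low counts that left 13944 genes for testing. RNA-seq libraries depleted of ribosomal RNA came from kidney cortex of 4 aged mice (30 months) and 4 young mice (5 months). All mice were untreated C57BL6 males, so that age was the only labelled difference. Each library stands for 1 mouse, numbered 1 to 4 within its group, and all per-mouse values below run in that order.

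B cells recognise antigen through a membrane immunoglobulin that signals through the Cd79a and Cd79b proteins, and they carry the Ms4a1 product, CD20, on their surface. On becoming plasma cells they give up CD20 and secrete antibody. The J chain, encoded by Igj, then links antibody units into polymeric IgA and IgM. T cells carry the Cd3 chains as part of their receptor complex and use the kinase Lck to start its signal. Lymphoid aggregates are a known feature of the aged kidney, and they hold both B cells and T cells.

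In aged cortex Igj rose about 6-fold, while no other member passed the test. No difference was detected in the B cell surface genes at these counts, and the T cell genes had higher means in aged mice without passing the threshold. Of all genes tested, 163 (1.17%) were called higher in aged mice and 124 (0.889%) lower, a call requiring an adjusted p below 0.05 and a change above 1.5-fold in edgeR's quasi-likelihood test. Among the members, 1 of the 8 tested was called higher and 0 lower. At an unadjusted p below 0.05, 4 of the 8 were higher (Igj, Lck, Pou2af1 and Cd3g), where 13.4% of all genes tested met that mark. That number was 2 without aged mouse 3 or young mouse 4, 3 without aged mouse 4 or young mouse 3, and 4 without any other single library. The share over all genes tested ran from 9.84% to 14.7% in those fits. In 2 of the 8, Igj and Lck, every aged library lay above every young library, which held for 8.85% of all genes tested. DESeq2 called 2 members higher, Igj and Lck, against 3.49% of all genes. Since a gene can pass the filter through the group where it is high, the unfiltered fit was also read for all 10 members. There the median log2 fold change was 0.77 against 0.05 over all 18224 genes, and 80.0% of the members were positive against 55.5% of all genes.

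Library depth ranged from 14820804 to 19018543 read pairs on genes in aged mice and from 15152597 to 19821429 in young mice. At these depths 3 read pairs equal 0.147 to 0.204 CPM, the count scaled to a common library size. Apart from Igj, 7 members had fewer than 25 read pairs in every library, so their values carry a large counting error. The libraries differed in how alike they were. The chi-square per gene between libraries was 9.43 to 20.7 within young mice, 106 to 204 between aged mouse 1 and the others, and 22.7 to 37.1 between aged mouse 4 and the young mice, below its 45.2 to 151 with the other aged mice. Aged mouse 1 stood apart in its cell types too. Its summed urothelium markers reached 136 CPM against 1.97 to 10.6 in the other 7 libraries, its fat markers 782 CPM against 42.4 to 227, and its proximal tubule and cortex markers 12162 CPM against 21465 to 25838. Values without aged mouse 1 are therefore given beside the members and the genes called.

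**Figure D1:**
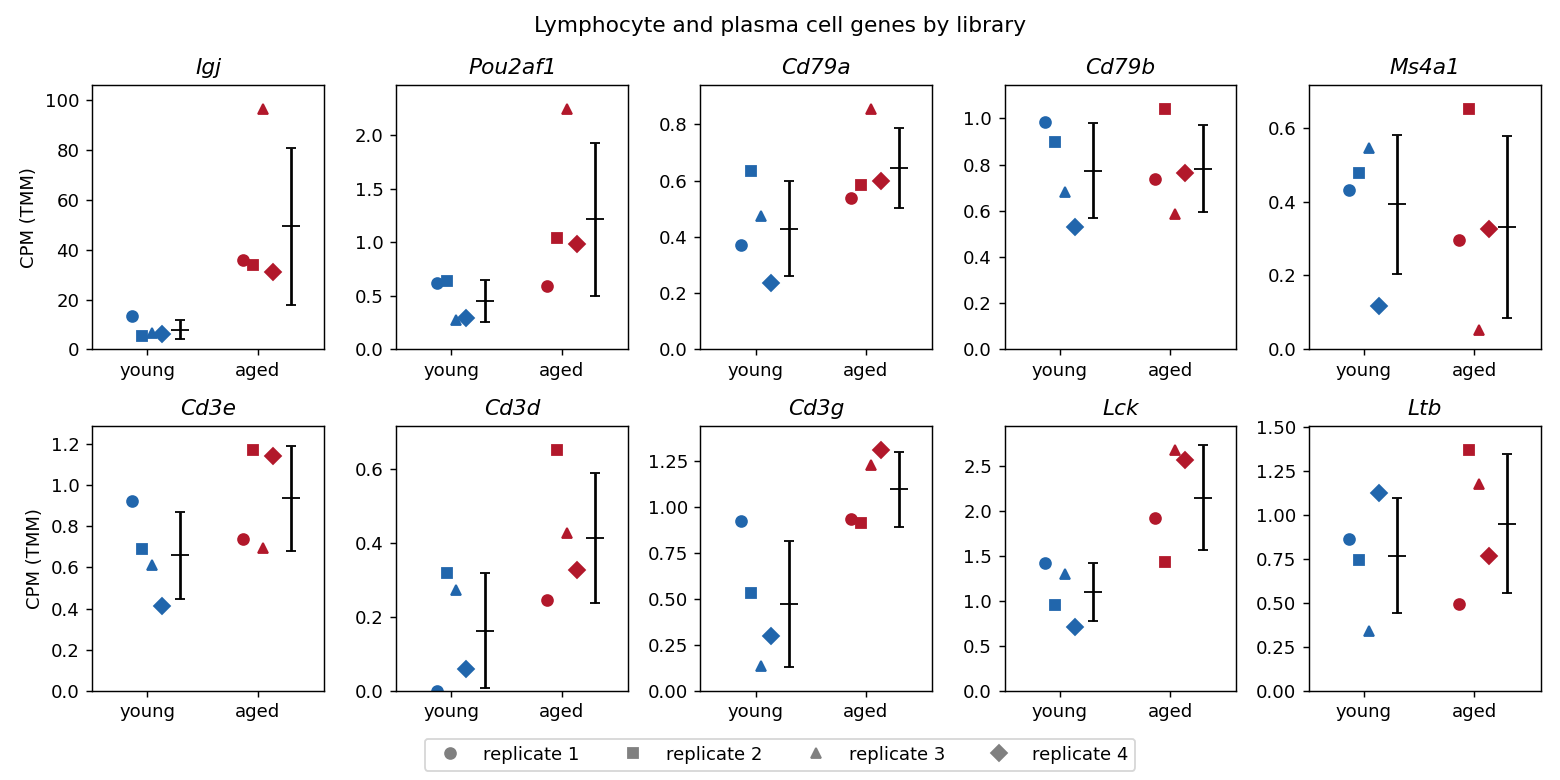
Level of each member in CPM after TMM scaling (y axes, each starting at 0) in young (blue) and aged (red) mice, with 1 symbol per library and the mean ± SD of 4 beside it. Igj separates the ages, with 31.1 to 96.5 CPM in aged and 5.29 to 13.6 in young mice, Lck separates them narrowly, and the other members overlap.

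Igj lies on chr5:88949537-88956916 (mm9, minus strand) and has 4 exons in its annotated transcripts. It had 731, 522, 1806 and 571 read pairs in aged and 220, 100, 99 and 102 in young mice. All aged mice were above all young mice, with aged mouse 3 far above the rest of its group and young mouse 1 the highest of the young. The level was 49.4 ± 31.5 CPM in aged and 7.90 ± 3.82 CPM in young mice (SD, n = 4 each). On the log2 scale the fold change was 2.65 (SE 0.45, 95% interval 1.62 to 3.67), with an adjusted p of 0.0311 by edgeR's quasi-likelihood test. In bulk tissue, a change in the number of cells of a type and a change in RNA per cell cannot be told apart. This holds for every gene below.

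The Igj difference did not rest on aged mouse 3 or aged mouse 1. Without aged mouse 3 the log2 fold change was 2.09 (adjusted p = 0.0349), and without aged mouse 1 it was 2.78 (adjusted p = 0.0200). It did lose its call when any single young mouse was left out. The log2 fold change was then 3.04, 2.50, 2.59 and 2.54 without young mice 1, 2, 3 and 4 in turn, with adjusted p of 0.0720, 0.0884, 0.0948 and 0.118. In those same 4 fits, the number of genes called among all those tested was 8, 35, 14 and 12, against 287 with all libraries.

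Among the members, Igj had by far the highest level per transcript length. Its mean was 20.6 CPM per kilobase of transcript (RPKM), with 35.4 in aged and 5.67 in young mice, and it was the 1 member with a mean above 1 RPKM. Its lowest library, at 3.80 RPKM, was above the highest library of any other member, 1.28 RPKM for Cd3g in an aged mouse. Mean levels of the others ran from Cd3g (0.766 RPKM), Lck (0.741), Ltb (0.739), Cd3e (0.556) and Cd79b (0.544) down to Cd79a (0.369), Pou2af1 (0.325), Cd3d (0.217) and Ms4a1 (0.143). Neighbours in this order overlapped in their ranges over the 8 libraries, except Igj and Cd3g.

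Pou2af1 encodes a coactivator that joins Oct factors at the octamer motif of immunoglobulin promoters, and it is expressed in B cells and plasma cells. It lies on chr9:51021795-51048184 (mm9, plus strand). Its counts were 12, 16, 42 and 18 in aged and 10, 12, 4 and 5 in young mice, with aged mouse 3 again the highest and aged mouse 1 within the young range. The level was 1.21 ± 0.716 CPM in aged and 0.455 ± 0.198 CPM in young mice (SD, n = 4 each). The log2 fold change of 1.39 (SE 0.48, 95% interval 0.30 to 2.47) missed the threshold in edgeR's test, with an adjusted p of 0.123. It was 0.90 (adjusted p = 0.210) without aged mouse 3 and 1.62 (adjusted p = 0.0630) without aged mouse 1.

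The stretches of 250 bases before the transcription start are shown for the 2 members with the largest tested changes, Igj and Pou2af1, and for Cd79a and Lck as a B cell and a T cell counterpart. The sequences are from RefSeq on GRCm38.p6, each on its gene's own strand, 5′ to 3′. The positions are chr5:88527898-88528147 for Igj (listed there as Jchain), chr9:51213440-51213689 for Pou2af1, chr7:24897247-24897496 for Cd79a and chr4:129558373-129558622 for start 2 of the 2 listed for Lck. Capitals mark an E box, CAGGTG or its complement CACCTG, the motif of E2A proteins, and a PU.1 core, GAGGAA or its complement TTCCTC.
Igj: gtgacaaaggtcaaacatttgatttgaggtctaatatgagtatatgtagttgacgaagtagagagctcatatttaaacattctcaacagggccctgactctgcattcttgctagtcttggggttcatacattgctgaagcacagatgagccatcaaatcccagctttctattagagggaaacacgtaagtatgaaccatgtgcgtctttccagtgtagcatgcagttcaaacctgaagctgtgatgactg
Pou2af1: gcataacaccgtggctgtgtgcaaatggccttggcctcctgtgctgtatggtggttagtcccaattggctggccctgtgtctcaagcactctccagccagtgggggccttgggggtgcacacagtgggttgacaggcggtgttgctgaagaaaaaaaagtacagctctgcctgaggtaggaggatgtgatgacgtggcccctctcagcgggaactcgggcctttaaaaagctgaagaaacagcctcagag
Cd79a: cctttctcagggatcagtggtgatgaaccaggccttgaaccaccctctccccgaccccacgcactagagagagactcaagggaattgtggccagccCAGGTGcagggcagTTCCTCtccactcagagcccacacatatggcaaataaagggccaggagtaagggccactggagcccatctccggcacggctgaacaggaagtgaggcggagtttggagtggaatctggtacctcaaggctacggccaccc
Lck: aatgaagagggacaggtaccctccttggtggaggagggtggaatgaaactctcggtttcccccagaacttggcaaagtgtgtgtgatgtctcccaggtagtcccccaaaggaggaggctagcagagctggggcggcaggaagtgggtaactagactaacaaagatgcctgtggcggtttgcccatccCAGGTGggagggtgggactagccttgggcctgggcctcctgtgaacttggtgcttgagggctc
The windows of Igj and Pou2af1 held none of the letters searched. Cd79a held an E box at position -154 and a PU.1 core at -140 from the start, and Lck held an E box at -63 from start 2. The window of Lck start 1, not shown, held no E box and a PU.1 core at -174. The octamer, ATGCAAAT or its complement ATTTGCAT, was in none of the windows of the 8 members with an entry, and it was in 1.61% of the 27025 promoters listed. E boxes were in 17.1% and PU.1 cores in 23.1% of those promoters. Cd79b and Ms4a1 had no entry in this table.

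The 3 B cell surface genes showed no difference with age that these counts could detect. Cd79b, the beta chain of the B cell receptor's signaling pair, lies on chr11:106172655-106176076 (mm9, minus strand). It had 15, 16, 11 and 14 read pairs in aged and 16, 17, 10 and 9 in young mice, and the groups overlapped over their whole range. Its log2 fold change was 0.00 (SE 0.31, 95% interval -0.70 to 0.70, adjusted p = 0.998 by edgeR's test), and 0.02 (adjusted p = 0.972) without aged mouse 1. The interval with all libraries leaves room for changes of moderate size in either direction.

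Cd79a, the alpha chain of the pair, lies on chr7:25682400-25687216 (mm9, plus strand). It had 11, 9, 16 and 11 read pairs in aged and 6, 12, 7 and 4 in young mice, where young mouse 2 lay above 3 of the aged mice. The log2 fold change was 0.57 (SE 0.35, 95% interval -0.21 to 1.35, adjusted p = 0.316), and 0.65 (adjusted p = 0.304) without aged mouse 1. A near-identical stretch on chromosome 12 matched 38.1% of the 100-base windows of its transcript. Read pairs from those windows may be placed in either copy, so the count of Cd79a is uncertain. The same search found no copy for the other members.

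Ms4a1 (chr19:11324654-11340669, mm9, minus strand) did not pass the filter. It had 6, 10, 1 and 6 read pairs in aged and 7, 9, 8 and 2 in young mice, 23 against 26 in all. Aged mouse 3, the library with the most Igj, had the fewest Ms4a1 read pairs. A two-sided exact permutation test over the 70 orders of the libraries gave p = 0.714 for its CPM, and the unfiltered fit gave a log2 fold change of -0.27 (95% interval -1.72 to 1.17). The log2 ratio of mean CPM was -0.24, and -0.19 without aged mouse 1. The gene 4930526L06Rik overlaps it on the opposite strand, and counting was by strand.

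Set against the 3 B cell surface genes of the same library, Igj moved apart from them. The summed read pairs of Cd79a, Cd79b and Ms4a1 were 32, 35, 28 and 31 in aged and 29, 38, 25 and 15 in young mice. For each of these read pairs, Igj had 22.8, 14.9, 64.5 and 18.4 in aged and 7.59, 2.63, 3.96 and 6.80 in young mice. The ratio was higher in every aged mouse than in every young mouse. Igj read pairs alone already separated the ages, so the ratio is no separate support. Pou2af1 per B cell surface read pair was 0.375, 0.457, 1.5 and 0.581 in aged and 0.345, 0.316, 0.160 and 0.333 in young mice. These ratios also do not overlap, although Pou2af1 itself overlapped in CPM, and each rests on a divisor of only 15 to 38 read pairs. Aged mouse 1 exceeded young mouse 1 by less than the spread within either group. A share over all genes was not computed for such ratios. Igj made up 78.0% to 90.7% of all read pairs of the 10 members in aged mice and 47.4% to 67.5% in young mice. These shares restate the same Igj counts.

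**Figure D2:**
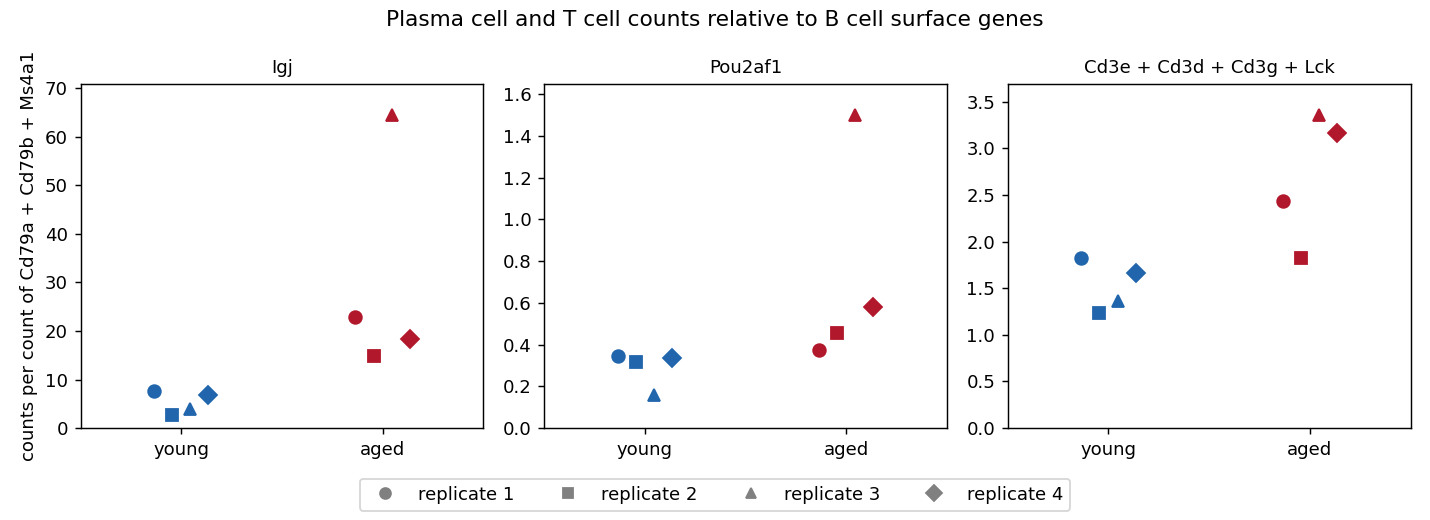
Read pairs of Igj, of Pou2af1 and of the 4 T cell genes together, each divided by the summed read pairs of Cd79a, Cd79b and Ms4a1 in the same library (y axes, from 0). Igj lies at 14.9 to 64.5 in aged (red) and 2.63 to 7.59 in young (blue) mice, and the T cell ratio at 1.83 to 3.36 against 1.24 to 1.83.

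Of the T cell genes, Lck came nearest to a call. This kinase of the T cell receptor lies on chr4:129225588-129250885 (mm9, minus strand) and had 39, 22, 50 and 47 read pairs in aged and 23, 18, 19 and 12 in young mice. After scaling for depth no young mouse reached an aged one, although aged mouse 2 (1.43 CPM) was barely above young mouse 1 (1.42 CPM). Its mean was 2.14 ± 0.581 CPM in aged and 1.09 ± 0.323 CPM in young mice (SD, n = 4 each). In edgeR's test the log2 fold change of 0.98 (SE 0.30, 95% interval 0.30 to 1.65) had an adjusted p of 0.0956, and DESeq2 gave an adjusted p of 0.0492. Without aged mouse 1 edgeR gave 1.04 (adjusted p = 0.0851).

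The 3 Cd3 genes form a cluster on chromosome 9, with Cd3g and Cd3d 1362 bases apart and transcribed from opposite strands. Cd3g (chr9:44777655-44788514) had 19, 14, 23 and 24 read pairs in aged and 15, 10, 2 and 5 in young mice. Its log2 fold change was 1.19 (SE 0.45, 95% interval 0.17 to 2.22, adjusted p = 0.148), and 1.26 (adjusted p = 0.137) without aged mouse 1. Young mouse 1 reached the CPM of aged mouse 2, and the groups overlapped.

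Cd3e (chr9:44806826-44817673) had 15, 18, 13 and 21 read pairs in aged and 15, 13, 9 and 7 in young mice. The log2 fold change of 0.49 (SE 0.32, 95% interval -0.23 to 1.22, adjusted p = 0.353) was within the spread between mice, and it was 0.59 (adjusted p = 0.302) without aged mouse 1. Cd3d (chr9:44789876-44795135) did not pass the filter, with 5, 10, 8 and 6 read pairs in aged and 0, 6, 4 and 1 in young mice. The exact permutation test on its CPM gave p = 0.114 (two-sided, 70 orders), and the unfiltered fit a log2 fold change of 1.27 (95% interval -0.34 to 2.89). Its log2 ratio of mean CPM was 1.35, and 1.53 without aged mouse 1. The 0 of young mouse 1 allows up to 0.185 CPM, 3 read pairs at its depth.

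Summed over Cd3e, Cd3d, Cd3g and Lck, read pairs numbered 78, 64, 94 and 98 in aged and 53, 47, 34 and 25 in young mice. Every aged sum was above every young sum, in CPM as well (3.83 to 5.34 against 1.48 to 3.27). Aged mouse 4 had the highest T cell sum and the lowest Igj level of its group, while in young mice mouse 1 led in both.

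Ltb (chr17:35331384-35333265, mm9, plus strand) encodes lymphotoxin beta, a membrane ligand of lymphocytes that acts through the receptor Ltbr to organise lymphoid tissue. It had 10, 21, 22 and 14 read pairs in aged and 14, 14, 5 and 19 in young mice. Its difference, 0.28 on the log2 scale (SE 0.42, 95% interval -0.67 to 1.23, adjusted p = 0.696), was small and the groups overlapped over most of their range. Without aged mouse 1 it was 0.50 (adjusted p = 0.445). Ltbr had a log2 fold change of -0.15 (adjusted p = 0.274).

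**Figure D3:**
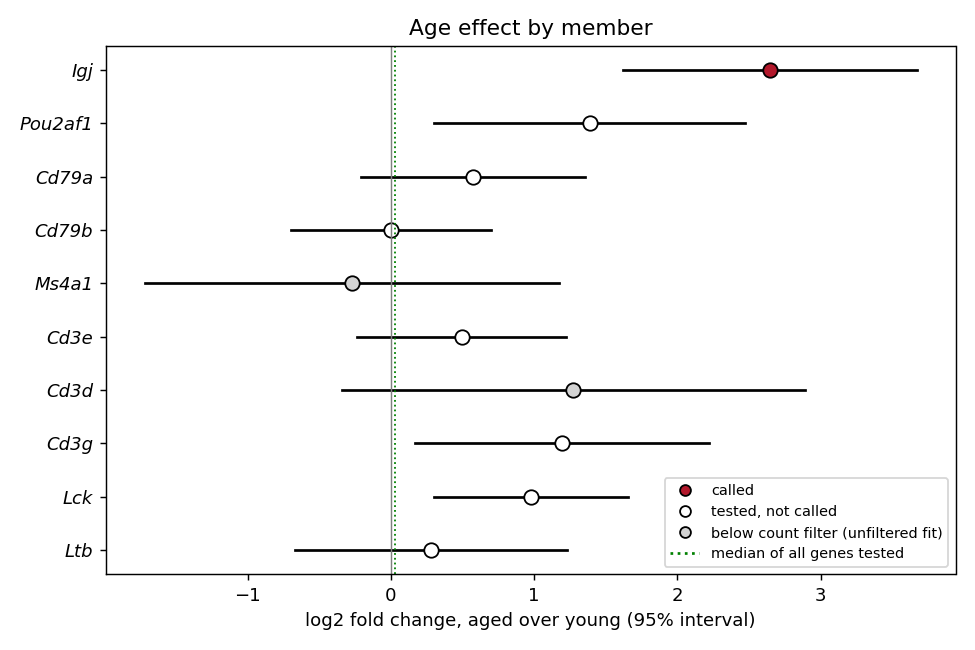
Log2 fold change of each member, aged over young (x axis), with its 95% interval from edgeR; grey symbols mark Ms4a1 and Cd3d, which fell below the count filter and are shown from the unfiltered fit. Igj, at 2.65 with an interval of 1.62 to 3.67, is the 1 member called, and the dotted line marks the median of all genes tested, 0.03.

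**Figure D4:**
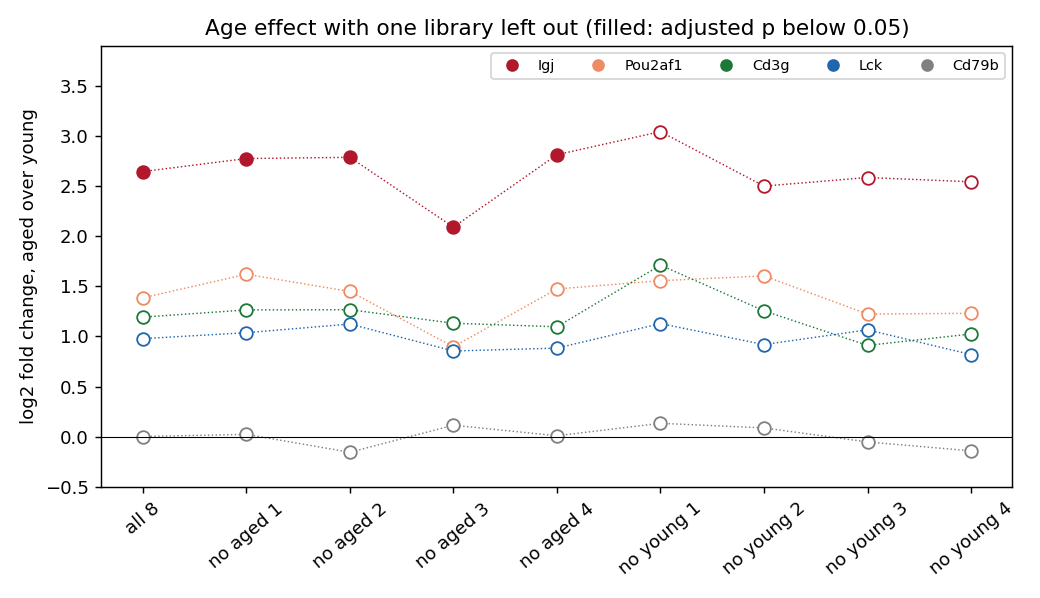
Log2 fold change, aged over young (y axis), of 5 members with all 8 libraries and with each library left out (x axis); filled symbols have an adjusted p below 0.05. Igj stays between 2.09 and 3.04 and loses its filled symbol without any one of the young mice, while Cd79b stays near 0.

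Genes of the same cell types outside the member list were read from lists of known markers. Over all genes tested, 1.17% were called higher, 0.889% were called lower, and 13.4% were higher at an unadjusted p below 0.05. DESeq2 called 3.49% higher, 486 of its 873 calls. The log2 fold change was positive for 54.1% of all genes tested and for 55.5% of all genes in the unfiltered fit. Every aged library lay above every young library for 8.85% of all genes tested. The shares lower at that unadjusted p, or with every aged library below every young library, were not computed. Counts of such lower genes are therefore listed without a share beside them. The counts of each list below are to be read beside these shares. Of 28 other T cell genes, 20 were tested, 2 were called higher and 0 lower. Il7r, the interleukin-7 receptor that T cells need to survive, had 67, 30, 37 and 43 read pairs in aged and 14, 17, 3 and 6 in young mice. Its log2 fold change was 2.01 (SE 0.42, adjusted p = 0.0431), with all aged mice above all young mice. Thy1, a surface protein of T cells that stromal and nerve cells also carry, had 55, 54, 48 and 52 against 25, 26, 24 and 14 read pairs. At a log2 fold change of 1.11 (SE 0.25) its adjusted p of 0.049995 was just under the threshold, and it kept the call in 6 of 17 alternative fits. Neither call held without aged mouse 2 or 3 (adjusted p = 0.0668 and 0.0709 for Il7r, 0.0815 and 0.0755 for Thy1) or without any single young mouse (0.0858 to 0.134 and 0.106 to 0.130). Without aged mouse 1 both were called, at 1.81 (adjusted p = 0.0404) for Il7r and 1.14 (adjusted p = 0.0422) for Thy1.

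In the unfiltered fit 26 of the 28 had a positive log2 fold change, and their median was 0.81. At an unadjusted p below 0.05, 8 of the 20 tested were higher, against 13.4% of all genes tested. With single libraries left out this ran from 5 of 22 without young mouse 2 to 12 of 22 without young mouse 1, and it was 8 of 20 without aged mouse 1. DESeq2 called 4 of the 20 higher, Cd247 and Themis beside Il7r and Thy1. Of the most abundant, Tcf7 (0.83, adjusted p = 0.256) and Il2rb (0.75, adjusted p = 0.133) did not pass, and Bcl11b had a log2 fold change of -0.12 (adjusted p = 0.687). Of 16 natural killer and cytotoxic genes, 4 were tested and 0 called, though 2 were higher at an unadjusted p below 0.05. These were the chemokine Ccl5 (log2 fold change 1.63, adjusted p = 0.0811) and Nkg7 (1.15, adjusted p = 0.0701), and DESeq2 called Ccl5 (adjusted p = 0.0176). The receptor Klrk1 was at 0.31 (adjusted p = 0.566) and the factor Eomes at 0.10 (adjusted p = 0.906).

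Of 22 other B cell genes, 10 were tested and 0 called in edgeR's test. At an unadjusted p below 0.05, 1 was higher and 2 were lower, and the higher ones numbered 2 without aged mouse 1 and 0 without aged mouse 2, aged mouse 4, young mouse 3 or young mouse 4. In the unfiltered fit 7 of the 22 were positive, with a median log2 fold change of -0.35. The genes lower at that mark were Cr2, complement receptor 2 of mature B cells, and Cd38, which many cell types carry. Cr2 had 26, 33, 27 and 26 read pairs in aged and 40, 56, 51 and 40 in young mice, with no overlap in CPM (log2 fold change -0.84, adjusted p = 0.0796). DESeq2 called Cr2 lower in aged mice (log2 fold change -0.86, adjusted p = 0.0284), its 1 call in this list. Cd38 had a log2 fold change of -0.44 (adjusted p = 0.0752), also with no overlap. The gene higher at that mark was Cd37 (0.84, adjusted p = 0.144). Of the other abundant genes of the list, the adaptor Blnk was at 0.25 (adjusted p = 0.505), the class II regulator Ciita at 0.32 (adjusted p = 0.483) and Cd72 at 0.27 (adjusted p = 0.752). The B lineage factor Pax5, singled out after its values were seen, was near the floor at both ages, with 1, 4, 2 and 1 read pairs in aged and 3, 4, 8 and 2 in young mice.

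Of 12 genes of plasma cells and antibody secretion, 10 were tested and 1 was called. At an unadjusted p below 0.05, 3 were higher and 0 lower. These 3, Pigr, Sdc1 and Irf4, also had every aged mouse above every young mouse, which held for 8.85% of all genes tested. As both marks name the same genes, they are not separate results. Pigr, the receptor by which epithelial cells carry polymeric IgA and IgM, joined by the J chain, to the lumen, had 19569, 10071, 9522 and 14109 read pairs in aged and 3547, 3927, 4646 and 6116 in young mice. All aged mice were above all young mice. The mean was 723 ± 191 CPM in aged and 276 ± 74.9 CPM in young mice (SD, n = 4 each), a log2 fold change of 1.39 (SE 0.24, adjusted p = 0.0312). Without aged mouse 1 it was 1.22 (adjusted p = 0.0231), and the call was lost without aged mouse 2 (adjusted p = 0.0538) or any single young mouse (0.0720 to 0.0999).

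Sdc1, the plasma cell surface proteoglycan that epithelia also express, had 585, 297, 386 and 280 read pairs in aged and 220, 178, 185 and 208 in young mice, a log2 fold change of 0.81 (adjusted p = 0.0597). It was called without aged mouse 1 (0.62, adjusted p = 0.0496), without aged mouse 4 (0.94, adjusted p = 0.0230) and by DESeq2 (adjusted p = 0.00486). Xbp1, the secretory factor, was at -0.17 (adjusted p = 0.620) and Eaf2 at 0.00 (adjusted p = 0.992). The plasma cell genes Tnfrsf17 and Irf4 were looked at after their values were seen. Tnfrsf17, the plasma cell survival receptor, had 2, 0, 6 and 1 read pairs in aged and 0, 0, 0 and 1 in young mice, with its highest count in aged mouse 3. Irf4, a factor of plasma cells that fat cells also express, had 769, 29, 51 and 47 in aged and 26, 26, 18 and 14 in young mice. Its log2 fold change of 3.16 (adjusted p = 0.109) became 0.93 (adjusted p = 0.0722) without aged mouse 1. Of 481 immunoglobulin gene names in the reference annotation GENCODE vM1, 1 was among the genes counted. Immunoglobulin heavy and light chain genes were not analysed here.

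Among 20 chemokines and TNF family signals of lymphoid organs, 11 were tested and 2 called higher. Cxcl13, which draws B cells into follicles, had 73, 18, 16 and 64 read pairs in aged and 9, 4, 2 and 2 in young mice. It rose by 3.13 on the log2 scale (SE 0.65, adjusted p = 0.0429), and by 2.82 (adjusted p = 0.0446) without aged mouse 1. Its levels did not order the aged mice as Igj did, since aged mouse 3 had the fewest Cxcl13 read pairs and the most Igj. Cxcl12, which retains plasma cells in bone marrow, had a log2 fold change of 0.68 (SE 0.12, adjusted p = 0.0313). Both calls were lost without aged mouse 2 (adjusted p = 0.0578 for each) or any single young mouse (0.0896 to 0.132 for Cxcl13, 0.0891 to 0.103 for Cxcl12). Without aged mouse 1 Cxcl12 was at 0.59 (adjusted p = 0.0197). The adhesion molecule Vcam1 was at 0.59 (adjusted p = 0.0525, and 0.00369 in DESeq2, which called it) and Icam1 at 0.03 (adjusted p = 0.834). Ccl19, Ccl21a and Ccl21b had 0 read pairs in all 8 libraries.

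Other lists bore on lymphocytes in general. Of 9 germinal center and cell division genes, 5 were tested and 0 called, with 3 lower and 0 higher at an unadjusted p below 0.05. The division gene Top2a was among them, at a log2 fold change of -1.11 (adjusted p = 0.0811). Bcl6, the germinal center repressor, had 466, 771, 492 and 469 read pairs in aged and 3256, 2483, 365 and 2328 in young mice, and young mouse 3 was within the aged range in CPM (log2 fold change -1.99, adjusted p = 0.0742). In the same young libraries Cd79a, Cd79b and Ms4a1 together had 15 to 38 read pairs, so the Bcl6 counts cannot be assigned to lymphocytes. DESeq2 called Bcl6, Mki67 and Top2a lower. Mki67 was at -0.85 (adjusted p = 0.1003) and S1pr2 at -0.11 (adjusted p = 0.757) in edgeR's test. Of 27 genes tested for antigen receptor signaling, 0 were called, and 4 were higher and 2 lower at that mark. The number higher was close to the share of 13.4% over all genes tested. It was 6 without aged mouse 1 and 2 without aged mouse 4 or young mouse 3. DESeq2 called 1, Inpp5d, higher. Its most abundant genes were Cd81 (0.00, adjusted p = 0.985), Plcg1 (0.60, adjusted p = 0.115), Malt1 (0.06, adjusted p = 0.828) and Grb2 (0.08, adjusted p = 0.557). Among 18 pan-leukocyte genes tested 0 were called and 5 were higher at that mark, and the common leukocyte antigen Ptprc had a log2 fold change of 0.29 (adjusted p = 0.497). That count of 5 ran from 0 without young mouse 3 to 10 without aged mouse 1, and it was 1 without aged mouse 2, aged mouse 4 or young mouse 4 and 2 without young mouse 2. Of its other abundant genes, Lcp1 was at -0.32 (adjusted p = 0.377), Cytip at 0.01 (adjusted p = 0.978) and Laptm5 at 0.52 (adjusted p = 0.179).

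Markers of other cell types differed among the same libraries. The summed fat markers were 782, 227, 51.8 and 131 CPM in aged and 95.2, 96.0, 42.4 and 103 in young mice. Of 7 fat markers tested 0 were called, 6 were higher at an unadjusted p below 0.05, and the median log2 fold change was 3.02, while without aged mouse 1 it was 3 of 7 with a median of 1.67. Without young mouse 2 or 3 it was also 3 of 7, and without young mouse 1 it was 4. DESeq2 called 3 of the 7 fat markers higher, Adipoq, Cfd and Retn. Aged mouse 3, with the most Igj, was within the young range for fat and for urothelium (2.78 CPM against 1.97 to 8.01). Summed macrophage and dendritic cell markers were 273 to 450 CPM in aged and 245 to 352 in young mice. Of the 16 tested, 14 had a positive log2 fold change, and the median was 0.48. At an unadjusted p below 0.05, 4 were higher and 1 was lower. The higher ones numbered 8 without aged mouse 1 and 3 without young mouse 2, 3 or 4. DESeq2 called Mrc1 higher and Csf1r lower. In edgeR's test 1 gene was called, Csf1r, lower in aged mice (log2 fold change -1.004, adjusted p = 0.0472). That call was lost without aged mouse 2 or 3 (adjusted p = 0.0737 and 0.0821) or any single young mouse (0.0795 to 0.132), and it was -0.91 (adjusted p = 0.0489) without aged mouse 1. Neutrophil markers summed to 9.13 to 10.8 CPM in aged and 4.50 to 7.44 in young mice, without overlap. Of 4 tested, 0 were called in edgeR's test and 2 were higher at an unadjusted p below 0.05. DESeq2 called 2 of them higher, S100a8 and S100a9. Lymph node stroma markers (496 to 563 against 475 to 568 CPM), red cell markers (145 to 283 against 181 to 416) and medulla markers (2745 to 4559 against 3575 to 5834) overlapped between the ages. Of the lymph node stroma list 1 gene was called, Cxcl13, which it shares with the chemokine list, and Glycam1 was at 0 in every library. The part of the fat, neutrophil and macrophage differences in the lymphocyte results was not tested.

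**Figure D5:**
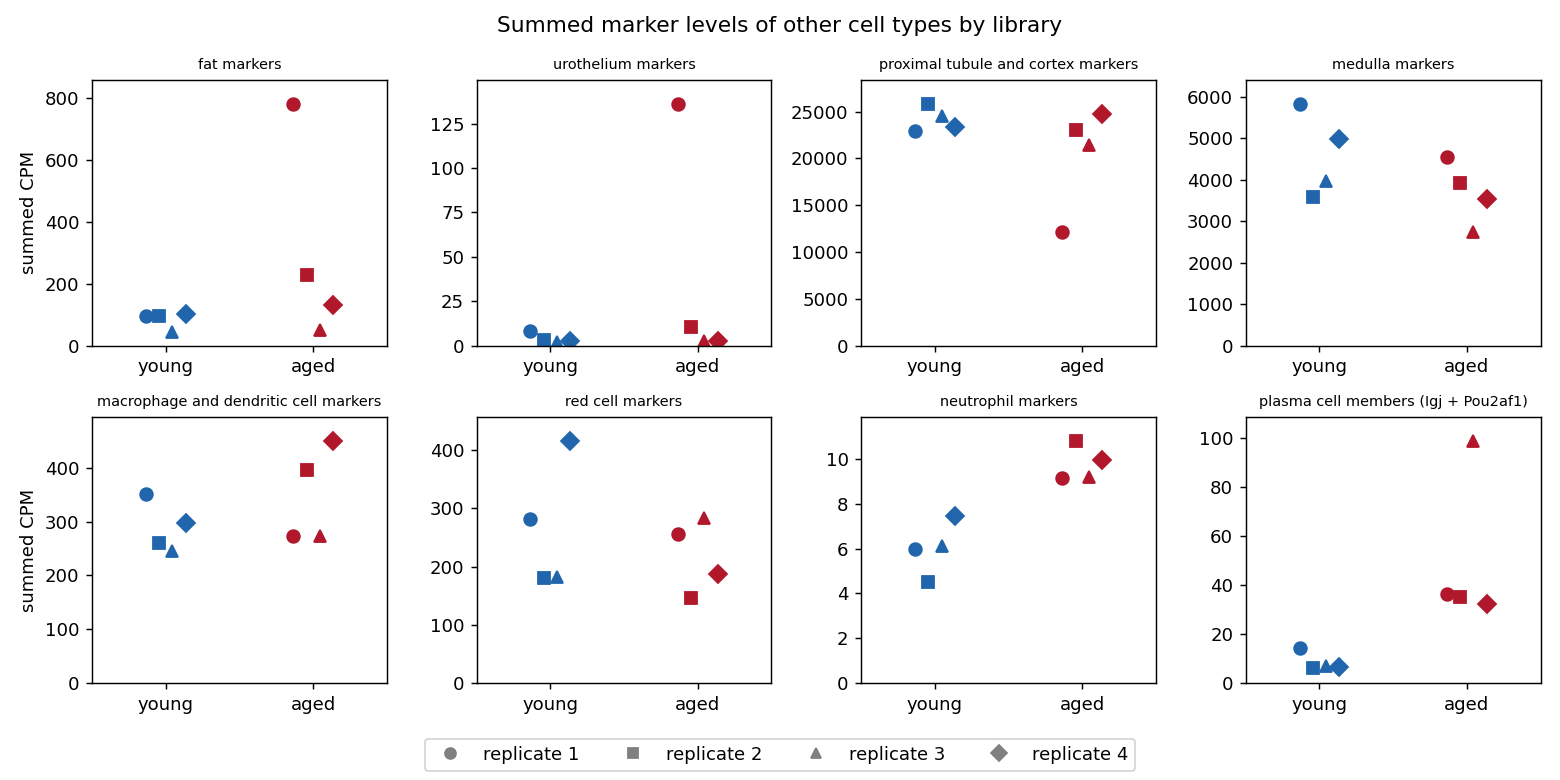
Summed CPM of marker lists of other cell types, with the sum of Igj and Pou2af1 at lower right (y axes, from 0), in young (blue) and aged (red) mice with 1 symbol per library. Aged mouse 1 stands apart for fat (782 CPM), urothelium (136 CPM) and proximal tubule (12162 CPM), and aged mouse 3 for Igj and Pou2af1 (98.8 CPM).

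Genes outside the list that varied most like the members over the 8 libraries were ranked by Pearson's r of log2 CPM. Closest to the mean of Cd79a, Cd79b, Igj and Pou2af1 were Fam175a (r = 0.98), Sh2b1 (0.97), Sox17 (0.97), Usf2 (0.97) and Gstm6 (0.97). Closest to the mean of Cd3e, Cd3g and Lck were Ano9 (0.97), Cxcr6 (0.97), Zfp951 (0.97), Cd4 (0.96) and Pcdhb7 (0.95). The second set includes Cd4, the coreceptor of helper T cells, and Cxcr6, a chemokine receptor of T cells. Both means carried differences between the ages that all libraries of a group share, so that a high r describes these libraries only.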

How the data were processed

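RNA-seq counts from kidney cortex of 4 aged and 4 young mice were analysed. Per the study's methods and labels, the authors prepared stranded, ribosomal RNA-depleted libraries, aligned read pairs to mm9 with TopHat2 and deposited raw counts per RefSeq gene by HTSeq-count, by strand. CASAVA 1.8.2 is in the submitters' processing notes, and the other versions are not given in the sources used here. Pairs on no gene (no feature, 20.0% to 29.9% of a library) were left out, as were 8 columns of a joint table that match no label.

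All 22609 genes entered edgeR 4.0.16 (R 4.3.3) as deposited counts: filterByExpr with a minimum count of 10, TMM scaling, quasi-likelihood F test and Benjamini-Hochberg adjustment over the 13944 genes left. A call needed an adjusted p below 0.05 and more than 1.5-fold. The labels give 4 mice at each age, and the ages printed are the labels', since the study's methods give a somewhat higher mean age for the aged mice. The p-values measure the spread between these samples. CPM used TMM-scaled library sizes, RPKM the transcript lengths of GENCODE vM1. The members and lists were chosen with earlier results of these data known. All 10 members are named, with each list's called genes, its most abundant 4 (given here for the lymphocyte and leukocyte lists), and the 5 genes most like each set. Intervals of a fold change cover the spread between mice, and the floor of 3 read pairs counting error only. Alternatives used DESeq2 1.42.0, limma-voom 3.58.1 with sample quality weights, other scalings and filters, a replicate block and each library left out. On simulated counts for 13869 genes with 200 changed, edgeR recovered 89.0% of them, with 3.26% of its calls false. These shares are over all 200 genes together, and recovery at read pairs as few as those of most members was not tested. Copies were sought with BLAST 2.17.0.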

Additional observations from a re-analysis of the deposited data

Results flagged for a closer look

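Igj in aged mouse 3, at 96.5 CPM, lay far from the other 3 aged mice. Its gap to the next highest, aged mouse 1 at 35.9 CPM, was 0.927 of the range of the group, more than Dixon's test allows for 4 samples. It was the only such value among 32 sets of 4 libraries tested, for the 10 members and the called list genes at each age, where chance gives about 1.6. The same library had the most Pou2af1 read pairs (42) and Tnfrsf17 read pairs (6) and the fewest Ms4a1 read pairs (1). The summed fat and urothelium markers of that library were low among the aged mice, at 51.8 and 2.78 CPM. A cause was not tested.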

How the results depend on the processing

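The count of genes called was 287, and it moved to 873 with DESeq2, 488 with library size only, 483 with limma-voom and sample quality weights together, and 130 with the replicate block. Leaving out single libraries gave 8 to 733 genes, 8 without young mouse 1 and 733 without aged mouse 4. The count of members called was 1, became 2 with DESeq2, which added Lck, and ranged from 0 to 1 with single libraries left out, at 0 without any one young mouse. It was 1 in every other alternative run. The log2 fold change of Cd79b changed sign to -0.0028 with DESeq2 size factors, -0.0034 without the filter, -0.0041 in DESeq2, -0.156 without aged mouse 2, -0.0531 without young mouse 3 and -0.142 without young mouse 4, with -0.156 to 0.133 over single libraries left out. The log2 ratio of Ms4a1 changed sign to 0.112 without aged mouse 3, over a range of -0.802 to 0.112. The cause of these shifts was not tested. Igj kept its direction in all 17 alternatives and its adjusted p below 0.05 in 13.

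Deviations from the group means correlated at 0.21, 0.04, 0.20 and -0.03 between same-numbered aged and young libraries. Between libraries of unlike number the correlations ran from -0.30 to 0.17, so 0.21 and 0.20 were the highest of all. These values cannot decide whether same-numbered libraries share a batch, and the labels name none. With the replicate block the log2 fold change of Igj was 2.55 (edgeR, adjusted p = 0.0425), and Il7r, Thy1, Pigr, Cxcl12 and Csf1r lost their calls (adjusted p = 0.0507 to 0.0927). Without scaling beyond library size, the median of all genes shifted from 0.03 to 0.14. The 7 members under 25 read pairs in every library rest on few counts.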
